A study of Mus musculus with 12 samples.

Results

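The Platr genes are a numbered set of mouse transcripts named for their association with pluripotency, and 30 rows of the deposited count table carry such a name (Platr followed by digits), of 48709 gene rows in all. Most are long non-coding RNAs that were picked out because embryonic stem cells express them and lose them on differentiation, so the set shares a pattern in stem cells and no sequence family or common biochemical role. Platr14 has been described as affecting the expression of differentiation genes in mouse embryonic stem cells, and Platr4 as acting in the commitment of such cells to cardiogenic mesoderm. For most of the others no function is well established.

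The study followed heart formation in mouse embryos by sequencing total RNA from dissected cardiogenic regions, the tissue that gives rise to the heart. There were 4 stages with 3 libraries each, E8, E8.5, E9.5 and E14 in embryonic days. No strain, allele, treatment or sex is given in the labels, and none says whether libraries came from separate embryos or litters, so each p-value reflects the spread among these libraries alone, which may be technical. Members were selected by name, and the group was chosen with the falls of Platr25 and Platr30 between E8 and E8.5 already known, so values of E8.5 against E8 are given here as a description with no test.

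Library totals ran from 56574386 to 122785175 counts. The 7 cardiomyocyte markers summed to 15416 to 24332 CPM (counts scaled by library size) in each library, and none of them was at 0. The 6 erythroid markers summed to 510 to 543 CPM at E8, 660 to 1116 CPM at E8.5 and 3889 to 9966 CPM at E9.5. In E14 replicates 1, 2 and 3 they summed to 19399, 7865 and 26141 CPM. The part of blood cell RNA in the Platr values was not tested. E8.5 replicate 3 stood apart: the 8 visceral endoderm markers (Afp, Apoa1, Apoa4, Apob, Apoc2, Ttr, Cubn and Amn) summed to 1656 CPM there and to 9.91 to 150 CPM in the other 11 libraries, with 1 marker at 0 in at least 1 E14 library and none at 0 in any library of the other stages. The 5 foregut endoderm markers summed to 51.9 CPM in the same library and to 4.55 to 29.7 CPM elsewhere. Results that rest on that library are given with and without it. In bulk tissue such as this, fewer cells of a type and less RNA per cell cannot be told apart.

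The 30 rows lie on 13 chromosomes and span 847 to 117513 bp, with a median of 8727 bp. In the GENCODE M21 annotation (GRCm38) 20 are lincRNAs, 6 are processed transcripts, 1 is antisense (Platr31), 1 is sense intronic (Platr32) and 2 are listed as protein coding (Platr25 and Platr17), although RefSeq lists Platr25 as a non-coding RNA. RefSeq gives the Platr17 locus as Smim40, a predicted small membrane protein. The interval of 29 rows was identical to that in M21, and Platr25 was matched by its symbol. The intervals of 10 rows overlap another row of the table and those of the other 20 do not. Whether counting used strand is not given in the sources used here, so reads of genes that overlap on opposite strands cannot be told apart. For genes that overlap on the same strand, such as Platr32, Platr16 and Platr29 with their partners, strand would not separate the reads. The longest M21 transcript of 13 members shared at least 1 stretch of 75 or more bases at 95% or higher identity with a transcript of another gene, and in 4 members (Platr30, Platr2, Platr16 and Platr13) such stretches covered more than 50% of the transcript.

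RefSeq promoter windows on GRCm38.p6, from 250 bases before to 50 bases after the start, were found for 13 members, with 2 windows each for Platr21 and Platr6. They are shown for Platr30, Platr22 and Platr26, whose stage patterns are described below. The second window of Platr21 and the windows of Platr8 and Platr14 are shown for a match to the octamer or SOX motif. Capitals mark matches, on either strand, to 6 short motifs. The octamer, searched as ATGCAAAT, is bound by POU factors such as Oct4. The SOX motif was searched as CATTGTT and the motif of the GATA zinc finger family as AGATAA. Of the core promoter motifs, the first box was searched as TATAAA, the GC box as GGGCGG and the last box as CCAAT. No motif contains another. Platr30, which fell at E14, has its window on the plus strand of chr3:96345037-96345336. Platr22, highest at E8.5, has its window on the plus strand of chr1:136695961-136696260. Platr26, highest at E9.5, has its window on the plus strand of chr2:71719167-71719466. The second window of Platr21 lies on the minus strand of chrX:139357689-139357988. The windows of Platr8 (minus strand, chr2:109913270-109913569) and Platr14 (plus strand, chr2:104559209-104559508) hold the matches to the SOX motif. Each sequence is printed 5′ to 3′ along its gene.
Platr30: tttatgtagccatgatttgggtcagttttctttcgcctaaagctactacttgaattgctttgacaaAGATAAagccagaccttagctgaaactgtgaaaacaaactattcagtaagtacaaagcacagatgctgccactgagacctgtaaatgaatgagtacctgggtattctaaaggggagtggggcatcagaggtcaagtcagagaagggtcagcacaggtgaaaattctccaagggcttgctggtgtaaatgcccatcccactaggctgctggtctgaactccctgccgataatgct
Platr22: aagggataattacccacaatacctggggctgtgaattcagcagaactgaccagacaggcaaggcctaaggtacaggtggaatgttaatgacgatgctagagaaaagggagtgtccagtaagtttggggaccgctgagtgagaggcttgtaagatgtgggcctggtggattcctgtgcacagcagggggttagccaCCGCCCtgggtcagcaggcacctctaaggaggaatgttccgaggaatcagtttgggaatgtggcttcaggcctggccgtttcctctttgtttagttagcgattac
Platr26: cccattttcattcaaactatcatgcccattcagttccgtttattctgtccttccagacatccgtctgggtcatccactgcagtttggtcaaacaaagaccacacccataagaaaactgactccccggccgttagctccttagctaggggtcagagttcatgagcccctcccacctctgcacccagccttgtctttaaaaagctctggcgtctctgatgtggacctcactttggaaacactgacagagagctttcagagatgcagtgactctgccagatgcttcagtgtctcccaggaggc
Platr21: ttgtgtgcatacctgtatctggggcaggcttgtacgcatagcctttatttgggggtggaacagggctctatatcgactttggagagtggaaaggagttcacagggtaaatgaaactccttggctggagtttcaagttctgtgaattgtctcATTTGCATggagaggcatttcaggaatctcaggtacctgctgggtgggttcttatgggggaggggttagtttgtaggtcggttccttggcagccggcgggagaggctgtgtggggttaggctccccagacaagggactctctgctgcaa
Platr8: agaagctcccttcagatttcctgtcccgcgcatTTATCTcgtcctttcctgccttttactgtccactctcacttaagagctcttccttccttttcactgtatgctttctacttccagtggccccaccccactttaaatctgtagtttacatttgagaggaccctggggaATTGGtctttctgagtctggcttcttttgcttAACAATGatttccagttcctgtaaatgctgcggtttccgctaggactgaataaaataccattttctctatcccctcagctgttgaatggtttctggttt
Platr14: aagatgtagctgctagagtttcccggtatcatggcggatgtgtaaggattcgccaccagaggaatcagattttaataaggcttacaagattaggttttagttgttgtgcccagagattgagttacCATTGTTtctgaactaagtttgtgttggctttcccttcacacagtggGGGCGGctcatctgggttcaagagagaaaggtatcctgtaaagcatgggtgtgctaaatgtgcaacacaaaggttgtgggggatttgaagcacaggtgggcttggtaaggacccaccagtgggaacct

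The octamer was in 1 of the 15 member windows (6.67%, the second window of Platr21) and in 1.74% of all 32851 windows. The SOX motif was in 2 of 15 (13.3%) and in 3.78% of all windows. The GATA motif was in 4 of 15 (26.7%, those of Platr30, Platr8 and Platr9 and the first window of Platr21) and in 11.2% of all. Of the core promoter motifs, TATAAA was in 6.67% of member windows and 13.6% of all, the GC box in 20% and 35.7%, and CCAAT in 46.7% and 37.4%. Median GC content was 49% in member windows and 52.7% in all, with a median of 4 and 7 CpG. These are matches of letters in 15 windows and describe no binding.

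A few members carried most of the signal. Summed over the 30 rows, the level was 123 to 133 CPM at E8, 93.4 to 104 CPM at E8.5, 58.1 to 70.6 CPM at E9.5 and 24.4 to 27.8 CPM at E14, and the 4 ranges did not overlap. Platr25 and Platr30 together made up 81.5% to 81.9% of the sum at E8 and 50.6% to 54.9% at E14. Per kilobase of interval, the mean level over the 12 libraries was 1.48 CPM for Platr25, 1.34 CPM for Platr30, 1.11 CPM for Platr32, 0.559 CPM for Platr13, 0.272 CPM for Platr15 and 0.146 CPM for Platr16. Each other member was below Platr16 on that scale. The expression filter of edgeR left 19 members for testing, and the other 11 had 9 to 90 counts over all 12 libraries. A low member could pass that filter through the stage where it was high, so counts over the 19 describe them and test nothing about the set.

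**Figure D1:**
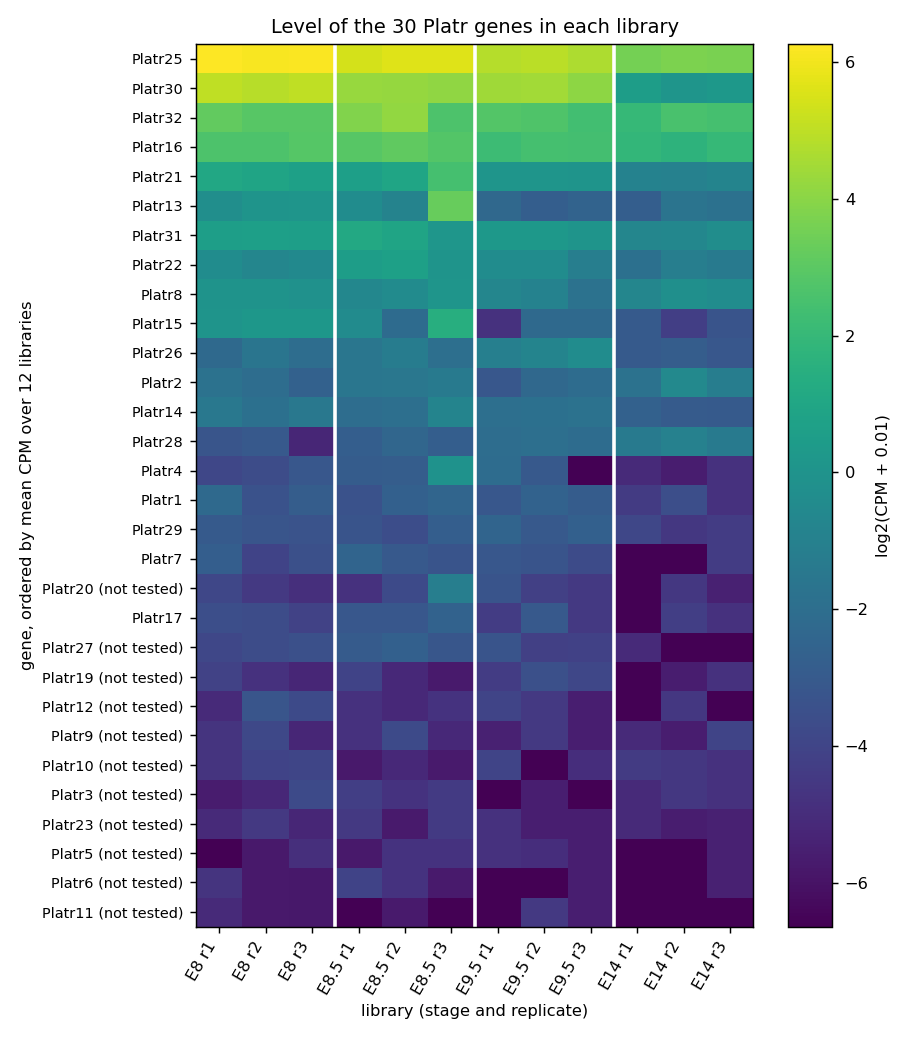
Level of each Platr gene, as log2(CPM + 0.01), in each of the 12 libraries, with genes ordered from the highest mean CPM at the top and the 11 untested genes marked. Platr25 and Platr30 lead, the E14 columns are the darkest for most rows, and E8.5 replicate 3 stands out in the rows of Platr13, Platr15, Platr4, Platr20 and Platr21.

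Between E8.5 and E9.5, when the heart tube loops, Platr26 rose and 9 tested members fell (Platr25, Platr16, Platr22, Platr31, Platr32, Platr8, Platr13, Platr15 and Platr21). Over all 28846 genes tested, 18.4% rose and 18.5% fell by edgeR's quasi-likelihood test at a Benjamini-Hochberg adjusted p under 0.05, so the 1 riser is below the background and the 9 fallers are 9 of 19. The median log2 fold change of the 19 tested members was -0.76, beside -0.03 over all genes tested. This comparison shares the E8.5 libraries with the contrast in which the falls of Platr25 and Platr30 were known.

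From E9.5 to E14, while the chambers mature, Platr2 rose and 10 members fell (Platr30, Platr25, Platr26, Platr16, Platr22, Platr31, Platr1, Platr7, Platr14 and Platr29). Over all genes 25.4% rose and 24.6% fell in that comparison, and the median log2 fold change was -0.98 for the tested members and 0.01 for all genes. It shares no library with the contrast of E8.5 with E8. At E14 against E8, Platr2 and Platr28 rose and 12 members fell, where 31.5% of all genes rose and 29.2% fell; the median log2 fold change was -1.25 for the tested members and 0.04 for all genes. That comparison reuses the E8 libraries in which Platr25 and Platr30 were known to be high, so its values for these members, both among the 12, are a description with no test. Platr16, Platr22 and Platr31 fell in each of the 3 comparisons, and Platr25 in the 2 in which it was tested. Platr4 and Platr17 were tested and called in none of the 3.

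Among members whose interval overlaps no other row, 11 were tested: 1 rose and 4 fell at E9.5 against E8.5, 1 rose and 5 fell at E14 against E9.5, and 2 rose and 6 fell at E14 against E8. Among the 15 tested members of which at most 50% of the longest transcript matched other genes, 1 rose and 7 fell, 0 rose and 8 fell, and 1 rose and 10 fell in the same order of comparisons. The riser lost at E14 against E9.5 was Platr2, a member with a full-length match elsewhere in the genome. Over all genes tested, 18.4% rose and 18.5% fell, 25.4% rose and 24.6% fell, and 31.5% rose and 29.2% fell in the same order. Platr25, whose values at E14 against E8 are a description with no test, is among the fallers of both subsets there.

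**Figure D2:**
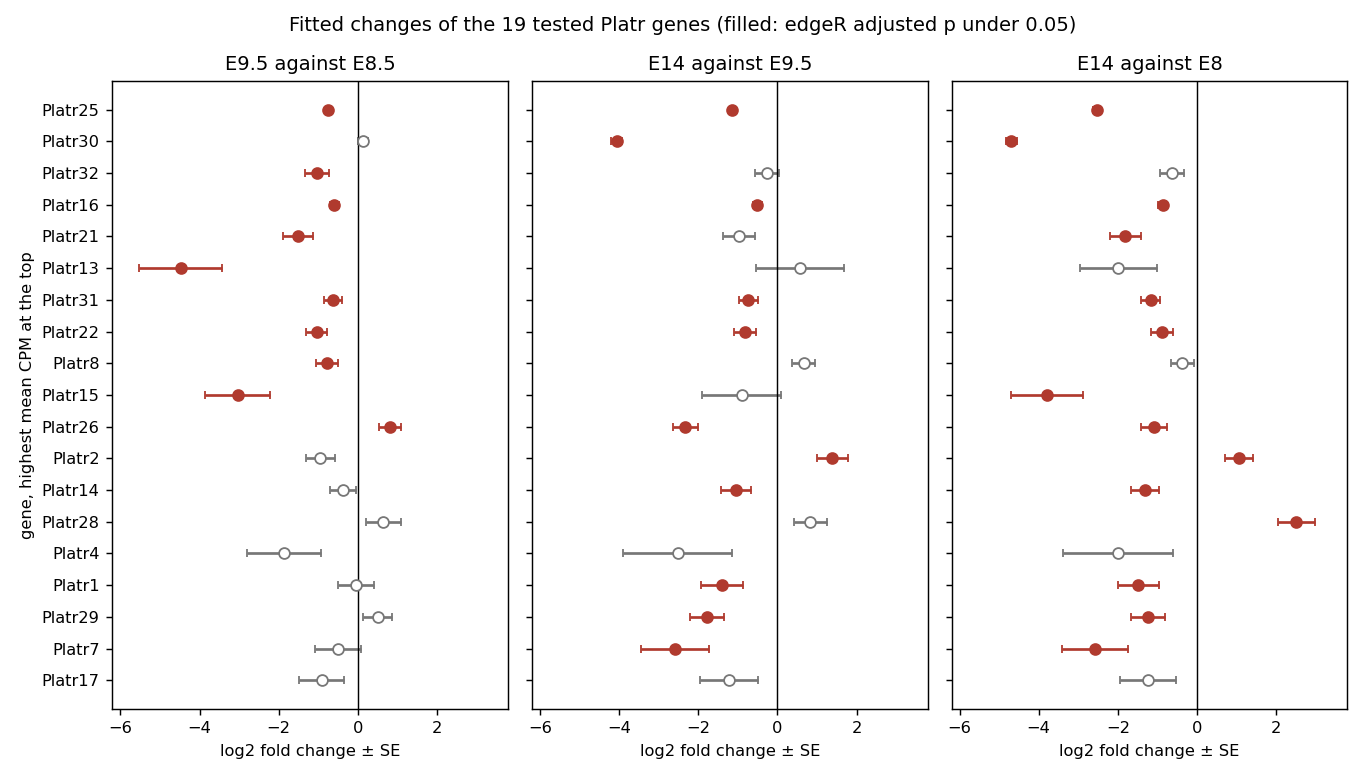
Fitted log2 fold change with its standard error for the 19 tested Platr genes in 3 comparisons, with filled red points for an edgeR adjusted p under 0.05 and open grey points otherwise. Most filled points lie left of 0, that is lower at the later stage, and Platr26, Platr2 and Platr28 give the filled points to the right of 0.

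Platr25 was the most abundant member and fell at each step. It is a multi-exon transcript in a zinc finger gene cluster on the minus strand of chromosome 13. Its levels in replicates 1, 2 and 3 were 76.8, 70.8 and 72.5 CPM at E8, 43.5, 49.9 and 48.9 CPM at E8.5, 28.2, 30.2 and 25.5 CPM at E9.5, and 12, 13.2 and 12.9 CPM at E14. No 2 stages overlapped, and the level in every later stage was below that in every library of the stage before. The log2 fold change was -0.63 ± 0.08 (SE) at E8.5 against E8, for which no test is given. At E9.5 against E8.5, which shares the E8.5 libraries of the known fall, it was -0.76 ± 0.08 (edgeR adjusted p = 9.82e-05). At E14 against E9.5 it was -1.14 ± 0.08 (edgeR adjusted p = 5.81e-07), and neither call was lost in any alternative. At E14 against E8, which shares the E8 libraries of the known fall, it was -2.53 ± 0.09 (no test). Near-identical stretches of 11 other genes cover 18.3% of its longest transcript, with Gm40977 covering the most (13%).

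Platr30 had the largest fall of any member at E14. It runs on the plus strand of chromosome 3 from 96345287 to 96358480, in a region of U1 small nuclear RNA genes, and it held 3381, 3387 and 4022 counts at E8, 2235, 2026 and 1944 at E8.5, 1618, 1983 and 1471 at E9.5, and 77, 97 and 90 at E14. These counts correspond to means of 31.1 ± 1.8, 18.4 ± 0.753, 20.2 ± 2.98 and 1.23 ± 0.212 CPM (SD, n = 3 at each stage). E8 stood above all other stages, E8.5 and E9.5 overlapped, and E14 lay far below. For Platr30, the log2 fold change was -0.76 ± 0.12 at E8.5 against E8 (no test). At E9.5 against E8.5, which shares the E8.5 libraries of that known fall, it was 0.13 ± 0.12 (edgeR adjusted p = 0.402). At E14 it was -4.06 ± 0.14 against E9.5, a 16.7-fold difference (edgeR adjusted p = 3.18e-09), and -4.69 ± 0.14 against E8 (no test, since the E8 libraries are shared with the known fall).

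The Platr30 row cannot be assigned to a single locus. All of its longest transcript (1934 bases) matches Gm17575 at 99.69% identity, a lincRNA 17165 bp away on the other strand of the same region, from 96375646 to 96388864. Gm17575 held 0.997 to 1.01 counts for each Platr30 count in the 9 libraries of E8 to E9.5, and 0.714 to 1.09 at E14. The 2 rows therefore had almost the same count in each library of the first 3 stages and differed more at E14, where both were low. How reads that match both loci were assigned is not given in the sources used here. Gm26553, a lincRNA that lies entirely inside the Platr30 interval on the opposite strand, also fell, by 3.13 ± 0.19 on the log2 scale at E14 against E9.5 (edgeR adjusted p = 1.5e-07), with 59 counts over the 3 E14 libraries, against 590 over the 3 E9.5 libraries. Rnu1b1, a gene for the U1 RNA of the spliceosome that starts 1472 bp beyond Platr30 and was singled out after its values were seen, fell by 1.98 ± 0.24 in the same comparison (edgeR adjusted p = 3.97e-05). The part of these neighbours in the Platr30 counts was not tested.

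**Figure D3:**
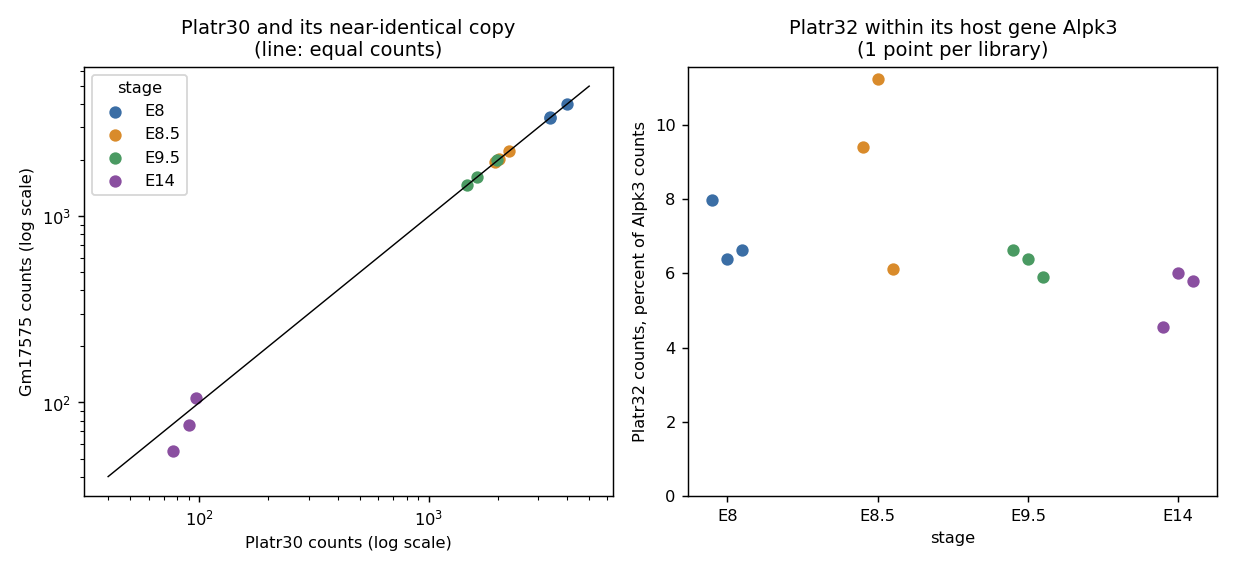
Left, counts of Platr30 (x axis) and Gm17575 (y axis) in each library on log scales, coloured by stage, with the line of equal counts; the points of E8, E8.5 and E9.5 lie on the line. Right, Platr32 counts as a percent of Alpk3 counts in each library by stage; 2 of the E8.5 libraries lie above every other library.

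Platr16 fell later and less. It is a processed transcript on chromosome 4, and its levels were 6.34, 6.36 and 7.14 CPM at E8, 7.57, 8.61 and 6.95 CPM at E8.5, 4.53, 5.53 and 5.33 CPM at E9.5, and 3.72, 3.2 and 3.93 CPM at E14. E8 and E8.5 overlapped, and both lay above E9.5, which in turn lay above E14. For Platr16, the log2 fold change was -0.59 ± 0.12 at E9.5 against E8.5 (edgeR adjusted p = 0.00327), -0.51 ± 0.12 at E14 against E9.5 (edgeR adjusted p = 0.00469) and -0.87 ± 0.12 at E14 against E8 (edgeR adjusted p = 6.5e-05). Gm13230, a transcribed pseudogene on the same strand, overlaps the end of the interval and covers 53.2% of the longest Platr16 transcript. Its counts were 71.8% to 79.8% of those of Platr16 at E8 and 81.7% to 87.2% at E9.5 and E14. In E8.5 replicates 1, 2 and 3 they were 52.4%, 45.8% and 76.1%. At E9.5 against E8.5, Gm13230 had a log2 fold change of -0.05 ± 0.14 (edgeR adjusted p = 0.82), while at E14 against E9.5 it fell by 0.46 ± 0.15 (edgeR adjusted p = 0.0213). The difference between the 2 rows was not tested.

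Platr22 was highest at E8.5. It is a lincRNA on chromosome 1, 66158 bp from Zfp281, a zinc finger regulator known from embryonic stem cells. It held 0.773, 0.601 and 0.678 CPM at E8, 1.45, 1.62 and 1.01 CPM at E8.5, 0.761, 0.77 and 0.457 CPM at E9.5, and 0.266, 0.454 and 0.378 CPM at E14. Each E8.5 library was above every library of the other stages, while E8 and E9.5 overlapped. The log2 fold change was 0.99 ± 0.26 at E8.5 against E8 (no test) and -1.04 ± 0.26 at E9.5 against E8.5 (edgeR adjusted p = 0.00992). At E14 it was -0.83 ± 0.28 against E9.5 (edgeR adjusted p = 0.0266) and -0.88 ± 0.28 against E8 (edgeR adjusted p = 0.0159). The fall at E14 against E9.5 was no longer called without E9.5 replicate 1 (edgeR adjusted p = 0.0801), E9.5 replicate 2 (0.0926), E14 replicate 1 (0.075) or E14 replicate 3 (0.0546), and that against E8 without E8 replicate 1 (0.0503). Platr23, on the other side of Zfp281, starts 251 bp from that gene in the opposite direction and held 3 to 9 counts in all at each stage.

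Platr26, a lincRNA 14650 bp from the integrin gene Itga6 on chromosome 2, was highest at E9.5. It held 21, 36 and 30 counts at E8, 39, 46 and 28 at E8.5, 35, 49 and 66 at E9.5, and 6, 12 and 8 at E14. These counts gave means of 0.25 ± 0.055, 0.337 ± 0.0861, 0.589 ± 0.15 and 0.116 ± 0.0128 CPM (SD, n = 3 at each stage). Each E9.5 library was above every library of the other stages, and each E14 library was below them. For Platr26, the log2 fold change was 0.81 ± 0.28 at E9.5 against E8.5 (edgeR adjusted p = 0.0386), -2.33 ± 0.32 at E14 against E9.5 (edgeR adjusted p = 7.17e-05) and -1.09 ± 0.32 at E14 against E8 (edgeR adjusted p = 0.0105). The falls at E14 were called in every alternative that gave a value. The rise was not: its adjusted p was 0.0547 without E8 replicate 3, 0.0805 without E8.5 replicate 1, 0.0819 without E8.5 replicate 3, 0.0792 without E9.5 replicate 2 and 0.175 without E9.5 replicate 3, 0.0559 with DESeq2, 0.0628 with no filter on low counts, 0.0872 with the 2 stages fitted alone and 0.0611 with a gene span adjustment.

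Platr28 rose from E8 to E14, and Platr2 was higher at E14 than at E8 or E9.5. Platr28, a lincRNA spanning 57375 bp of chromosome 7, held 10, 13 and 2 counts at E8, 16, 20 and 15 at E8.5, 18, 22 and 20 at E9.5, and 20, 46 and 30 at E14. Its means were 0.0743 ± 0.0512, 0.152 ± 0.0283, 0.238 ± 0.0105 and 0.422 ± 0.0647 CPM (SD, n = 3 at each stage), and no 2 stages overlapped in CPM. Its fitted log2 change was 2.51 ± 0.46 at E14 against E8 (edgeR adjusted p = 0.000514) and was called in every alternative that gave a value. It was 0.64 ± 0.44 at E9.5 against E8.5 (edgeR adjusted p = 0.269) and 0.83 ± 0.42 at E14 against E9.5 (edgeR adjusted p = 0.123), and the last of these was called without E8 replicate 3 (edgeR adjusted p = 0.0234) or with the 2 stages fitted alone (0.02).

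Platr2, a lincRNA spanning 86401 bp of chromosome 13, held 30, 27 and 19 counts at E8, 38, 36 and 41 at E8.5, 8, 17 and 20 at E9.5, and 15, 61 and 33 at E14. In CPM, E9.5 (0.105 to 0.228) lay below E14 (0.285 to 0.659), and E8 (0.152 to 0.286) overlapped E14 by its highest library. E8.5 (0.323 to 0.371) lay within the range of E14, and E9.5 had the lowest mean. At E9.5 against E8.5 the log2 fold change was -0.95 ± 0.37 (edgeR adjusted p = 0.0645). The log2 fold change was 1.39 ± 0.38 at E14 against E9.5 (edgeR adjusted p = 0.00872) and 1.06 ± 0.36 at E14 against E8 (edgeR adjusted p = 0.0236). Both rises depended on E14 replicate 2, the library with 61 counts: without it the edgeR adjusted p was 0.059 against E9.5 and 0.161 against E8. The rise against E8 was also lost without E8 replicate 2 (0.0546) or E8 replicate 3 (0.0959), or with a gene span adjustment (0.0528). All of the 521-base transcript matches 2410141K09Rik, a protein-coding gene on the same chromosome, which had 6, 27 and 9 counts at E14 and 3, 3 and 2 at E9.5. In both rows E14 replicate 2 had the highest count of that stage.

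**Figure D4:**
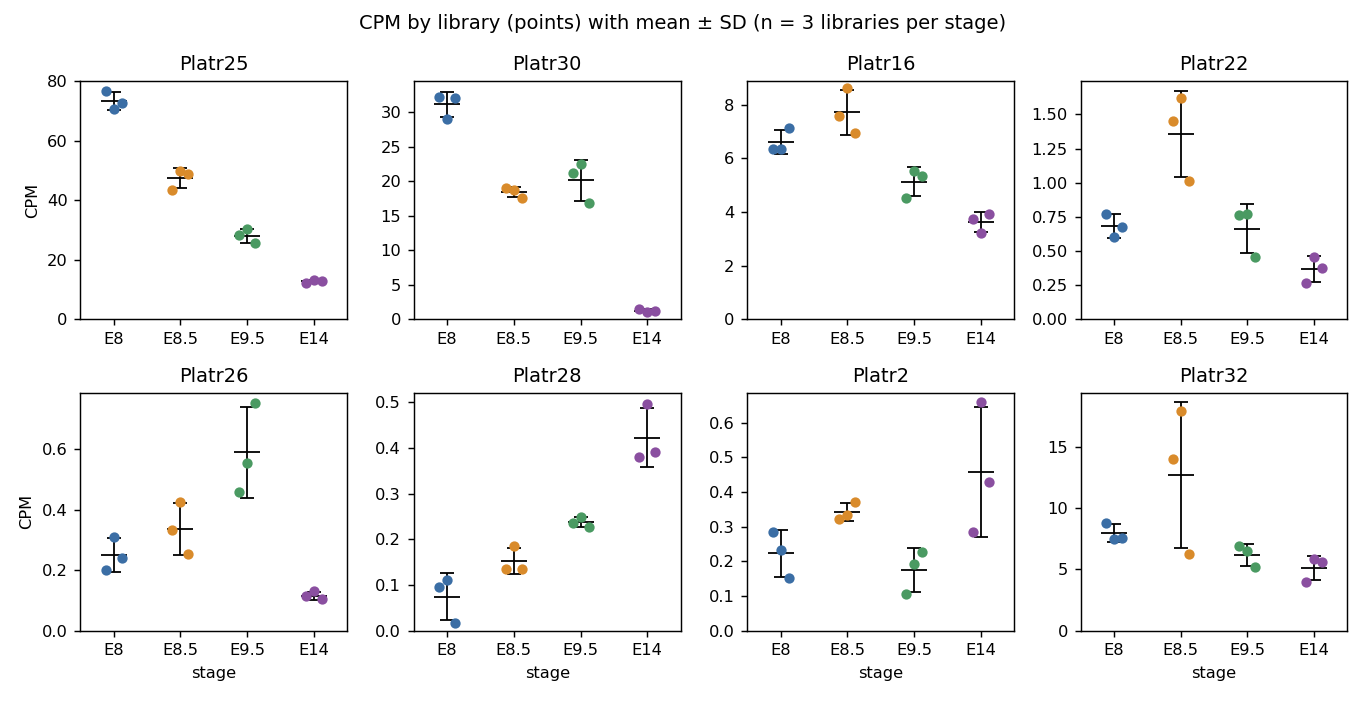
CPM of 8 Platr genes by stage, with 1 point per library and black bars for the mean and SD of 3 libraries. Platr25 and Platr16 step down after E8 or E8.5, Platr30 is at 1.23 CPM at E14, Platr22 is highest at E8.5, Platr26 at E9.5 and Platr28 at E14, and the 3 E8.5 points of Platr32 are spread.

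Platr32 lies wholly inside Alpk3, on the same strand, so its reads cannot be told apart from those of unspliced Alpk3 RNA. Alpk3 encodes an alpha kinase required for normal sarcomeres in heart muscle, and its counts were about 13.4 times those of Platr32 over all libraries. Platr32 held 8.8, 7.49 and 7.58 CPM at E8, 14, 17.9 and 6.22 CPM at E8.5, 6.89, 6.49 and 5.18 CPM at E9.5, and 3.95, 5.82 and 5.57 CPM at E14. E8.5 replicates 1 and 2 were above every other library and E8.5 replicate 3 was not. Platr32 counts were 9.41% and 11.2% of Alpk3 counts in E8.5 replicates 1 and 2, 6.11% in E8.5 replicate 3 and 4.57% to 7.99% in the 9 libraries of the other stages. For Platr32, the log2 fold change was -1.04 ± 0.30 at E9.5 against E8.5 (edgeR adjusted p = 0.021), beside -0.48 ± 0.14 for Alpk3 (edgeR adjusted p = 0.0181). Without E8.5 replicate 3 it was -1.34 ± 0.17 (edgeR adjusted p = 0.000161). The call was lost without E8.5 replicate 1 (0.0557), E8.5 replicate 2 (0.093), E9.5 replicate 2 (0.0563) or E9.5 replicate 3 (0.0826), with no filter on low counts (0.0512) or with the 2 stages fitted alone (0.0773). At E14 the log2 fold change was -0.27 ± 0.31 against E9.5 (edgeR adjusted p = 0.501) and -0.63 ± 0.31 against E8 (edgeR adjusted p = 0.0953; 0.00286 without E8.5 replicate 3, 0.00256 with the 2 stages fitted alone and 0.043 with DESeq2).

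Platr31 is antisense to Tigar, a phosphatase that lowers glycolytic flux, and 91.1% of its interval lies inside that gene. It held 1.48, 1.56 and 1.48 CPM at E8, 2.24, 1.88 and 1.09 CPM at E8.5, 1.17, 1.18 and 1.03 CPM at E9.5, and 0.588, 0.626 and 0.794 CPM at E14. The E14 libraries lay below all others, while E8.5 overlapped both of its neighbours through E8.5 replicate 3. For Platr31, the log2 fold change was -0.74 ± 0.24 at E14 against E9.5 (edgeR adjusted p = 0.0224) and -1.17 ± 0.24 at E14 against E8 (edgeR adjusted p = 0.00112). Tigar fell alongside it at E14, by 0.88 ± 0.10 against E9.5 (edgeR adjusted p = 2.31e-05) and by 0.93 ± 0.10 against E8 (edgeR adjusted p = 9.21e-06). At E9.5 against E8.5 Tigar had a log2 fold change of -0.07 ± 0.10 (edgeR adjusted p = 0.618), beside -0.63 ± 0.23 for Platr31. Platr31 counts were 6.72% to 13.1% of Tigar counts in each library. Without strand in the counting, how many Platr31 reads come from Tigar cannot be told apart. The E14 call against E9.5 was lost without E9.5 replicate 1 (0.053), E9.5 replicate 2 (0.0608), E14 replicate 1 (0.0572) or E14 replicate 2 (0.0607). At E9.5 against E8.5 the value of -0.63 ± 0.23 sat at the threshold (edgeR adjusted p = 0.0499) and was lost on leaving out any library but E8.5 replicate 3, with adjusted p from 0.0636 to 0.194; without E8.5 replicate 3 it was -0.84 (edgeR adjusted p = 0.0017). It was also lost with RLE factors (0.0503), with no filter on low counts (0.0767), with the 2 stages fitted alone (0.146), with a replicate block (0.0753) and without small structural RNAs (0.0568).

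Platr13, Platr15 and Platr21 fell at E9.5 against E8.5, and the size of each fall rested on E8.5 replicate 3. Platr13, a short lincRNA on chromosome 11, held 85, 120 and 134 counts at E8, 90, 58 and 1079 at E8.5, 15, 12 and 14 at E9.5, and 7, 28 and 21 at E14. Its log2 fold change was -4.48 ± 1.04 at E9.5 against E8.5 (edgeR adjusted p = 0.00718), and -1.96 ± 0.32 without E8.5 replicate 3 (edgeR adjusted p = 0.000615). At E14 against E8, which does not involve that library other than through the shared spread, it was -1.99 ± 0.97 (edgeR adjusted p = 0.0997), and -2.03 ± 0.29 without it (edgeR adjusted p = 6.07e-05; 0.00014 with the 2 stages fitted alone). The 2 early stages lay above the 2 later ones in every library.

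Platr15, a lincRNA on chromosome 2, held 107, 133 and 143 counts at E8, 86, 24 and 299 at E8.5, 2, 18 and 18 at E9.5, and 6, 4 and 7 at E14. The log2 fold change was -3.03 ± 0.82 at E9.5 against E8.5 (edgeR adjusted p = 0.0149) and -3.78 ± 0.91 at E14 against E8 (edgeR adjusted p = 0.00378). Without E8.5 replicate 3 they were -1.66 ± 0.61 (edgeR adjusted p = 0.0474) and -3.82 ± 0.63 (edgeR adjusted p = 0.000266). With all libraries and the 2 stages fitted alone, the call at E9.5 against E8.5 was lost (0.0681). Gm17167, which covers 37% of the longest Platr15 transcript in near-identical stretches, ran the other way in level, with means of 6.27, 8.41, 14.6 and 19.1 CPM over the 4 stages in order.

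Platr21 spans 117513 bp of the X chromosome and encloses Trap1a, an antigen gene on the opposite strand. It held 2.09, 1.87 and 1.61 CPM at E8, 1.55, 1.93 and 5.46 CPM at E8.5, 1.06, 1.04 and 1.03 CPM at E9.5, and 0.512, 0.508 and 0.56 CPM at E14. Apart from E8.5 replicate 3, E8 and E8.5 overlapped, and E9.5 and E14 lay below them without overlap. For Platr21, the log2 fold change was -1.51 ± 0.38 at E9.5 against E8.5 (edgeR adjusted p = 0.0095), -0.98 ± 0.40 at E14 against E9.5 (edgeR adjusted p = 0.0605) and -1.81 ± 0.40 at E14 against E8 (edgeR adjusted p = 0.00195). Without E8.5 replicate 3 these were -0.71 ± 0.16 (edgeR adjusted p = 0.00418), -1.02 ± 0.16 (edgeR adjusted p = 0.000175) and -1.85 ± 0.16 (edgeR adjusted p = 7.06e-07). With all libraries and the 2 stages fitted alone, the call at E9.5 against E8.5 was lost (0.0585), and E14 against E9.5 was called in that way (0.00107), with DESeq2 (0.033) and with a gene span adjustment (0.0341). Trap1a held 16, 17 and 407 counts at E8.5, of 530 over all libraries, beside 183, 209 and 604 counts of Platr21. The part of Trap1a in the Platr21 counts was not tested.

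Platr4 and Platr20 were also highest in that library. Platr4, named here for its reported role and after its values were seen, held 6, 8 and 13 counts at E8, 15, 14 and 106 at E8.5, 17, 10 and 0 at E9.5, and 1, 1 and 2 at E14. None of its 3 tested differences passed; the log2 fold change at E14 against E8 was -2.01 ± 1.39 (edgeR adjusted p = 0.231), and -2.05 ± 1.05 without E8.5 replicate 3 (edgeR adjusted p = 0.105). Platr20 held 49 of its 59 E8.5 counts in replicate 3 and was not tested.

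The level in E8.5 replicate 3 was over 2 times that in each of the other 11 libraries for these 5 members, Platr13, Platr15, Platr21, Platr4 and Platr20. They are 16.7% of the 30 rows, and 4 of them are 21.1% of the 19 tested, while 1.13% of all tested rows met the same criterion. Among them, Platr21 encloses Trap1a, which held 407 counts in that library, beside 604 for Platr21. In the same library Platr32 (0.347 of the higher of the other E8.5 replicates) and Platr31 (0.488) were lower. The endoderm marker sums given above were highest in that library as well. The visceral endoderm sum was 131 CPM in E9.5 replicate 3 and 19 CPM in E8 replicate 3, while Platr13 was at 0.16 CPM in E9.5 replicate 3 and 1.07 CPM in E8 replicate 3. The foregut endoderm sum was 28.8 to 29.7 CPM at E8, 16.8 and 20.4 CPM in the other E8.5 libraries, 7.03 to 8.63 CPM at E9.5 and 4.55 to 4.87 CPM at E14. The part of either marker list in the Platr values was not tested.

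**Figure D5:**
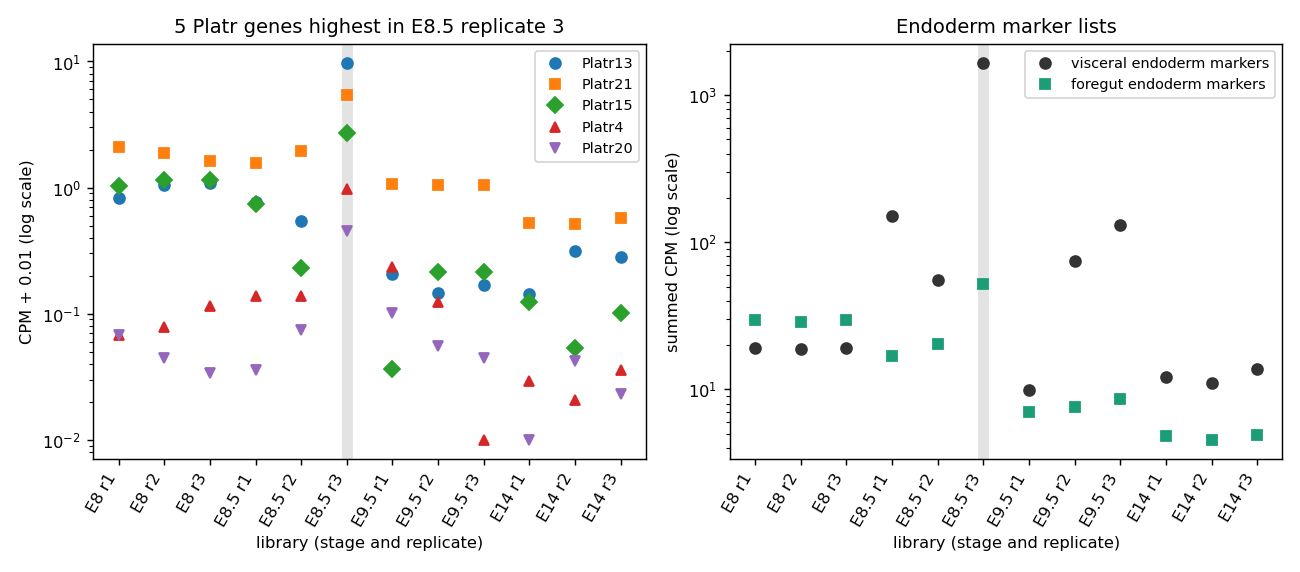
Left, CPM + 0.01 on a log scale for Platr13, Platr21, Platr15, Platr4 and Platr20 in the 12 libraries. Right, summed CPM on a log scale of the visceral and foregut endoderm marker lists; the grey band marks E8.5 replicate 3, where all 5 genes and both sums are at their highest.

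Platr8 and Platr14 hold the SOX motif in the windows printed above. Platr8, a processed transcript 1393 bp from the end of Lin7c, a scaffold protein gene, held 0.983, 0.97 and 0.909 CPM at E8, 0.612, 0.749 and 1.05 CPM at E8.5, 0.604, 0.51 and 0.285 CPM at E9.5, and 0.588, 0.853 and 0.755 CPM at E14. Its lowest stage was E9.5, which overlapped E14 by a single library. For Platr8, the log2 fold change at E9.5 against E8.5 was -0.79 ± 0.28 (edgeR adjusted p = 0.0465). That call was lost without E8 replicate 1 (0.0625), 2 (0.0648) or 3 (0.0646), E8.5 replicate 2 (0.0749) or 3 (0.161), E9.5 replicate 2 (0.0864) or 3 (0.167), or E14 replicate 1 (0.0578), 2 (0.0644) or 3 (0.0719). It was also lost with no filter on low counts (0.0686), with the 2 stages fitted alone (0.145), with a replicate block (0.0742) and without small structural RNAs (0.0541). At E14 the log2 fold change was 0.66 ± 0.29 against E9.5 (edgeR adjusted p = 0.0738, and 0.0383 without E9.5 replicate 1).

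Platr14 held 36, 31 and 44 counts at E8, 28, 27 and 61 at E8.5, 19, 23 and 25 at E9.5, and 8, 11 and 9 at E14. In CPM every E14 library (0.117 to 0.152) lay below every library of the other stages (0.238 to 0.551). The log2 fold change was -1.32 ± 0.36 at E14 against E8 (edgeR adjusted p = 0.0073), called in every alternative that gave a value, and -1.05 ± 0.37 at E14 against E9.5 (edgeR adjusted p = 0.0325). The second call was lost without E9.5 replicate 1 (0.0523), 2 (0.0649) or 3 (0.0794) or E14 replicate 2 (0.0895) or 3 (0.0882), or with DESeq2 (0.0577). At E9.5 against E8.5 the value of -0.38 ± 0.33 (edgeR adjusted p = 0.387) turned to 0.15 without E8.5 replicate 3.

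Platr1, Platr7 and Platr29 were low throughout and lowest at E14. Platr1 held 21, 10 and 16 counts at E8, 10, 16 and 19 at E8.5, 8, 14 and 11 at E9.5, and 2, 7 and 2 at E14. Its log2 fold change was -1.48 ± 0.51 at E14 against E8 (edgeR adjusted p = 0.0251), while Adipor1, the adiponectin receptor gene that lies 2277 bp away on the same strand, rose by 0.78 ± 0.11 (edgeR adjusted p = 8.76e-05). Stretches that cover 7.87% of the longest Platr1 transcript match transcripts of 274 other genes. The Platr1 call against E8 was lost without E8 replicate 1 (0.1), E14 replicate 1 (0.0615) or E14 replicate 3 (0.0931). The call against E9.5 (-1.40 ± 0.52, edgeR adjusted p = 0.0421) was lost without E8 replicate 3, E8.5 replicate 2, any E9.5 replicate, or E14 replicate 1 or 3, with adjusted p from 0.0521 to 0.139, and with no filter on low counts (0.06), with DESeq2 (0.0789) and with a replicate block (0.0662).

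Platr7 held 14, 6 and 10 counts at E8, 20, 12 and 10 at E8.5, 8, 8 and 6 at E9.5, and 0, 0 and 3 at E14. With so few counts at E14 the fitted log2 fold changes of -2.59 ± 0.86 against E9.5 (edgeR adjusted p = 0.025) and -2.58 ± 0.84 against E8 (edgeR adjusted p = 0.0185) are imprecise. They were lost on leaving out E9.5 replicate 1 (0.0608) or 2 (0.0563) or E14 replicate 1 (0.0627) or 2 (0.0898) in the first, and E8 replicate 1 (0.0648) or E14 replicate 2 (0.0715) in the second.

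Platr29 held 12, 11 and 11 counts at E8, 11, 8 and 15 at E8.5, 13, 10 and 13 at E9.5, and 3 in each E14 library. Its log2 fold change was -1.77 ± 0.43 at E14 against E9.5 (edgeR adjusted p = 0.00457), called in every alternative that gave a value. It was -1.23 ± 0.43 at E14 against E8 (edgeR adjusted p = 0.0268), lost without E8 replicate 1 (0.0749) or 2 (0.0531) or E14 replicate 2 (0.104) or 3 (0.0763), with DESeq2 (0.0975) or with no filter on low counts (0.0599). Gm11464, a lincRNA on the same strand that shares 56.7% of the Platr29 interval, fell by 1.34 ± 0.46 at E14 against E9.5 (edgeR adjusted p = 0.0277). Reads of the 2 rows cannot be told apart where they overlap. The nearest coding gene, Ncoa3, a nuclear receptor coactivator, begins 6712 bp from Platr29 in the opposite direction.

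The 11 untested rows (Platr3, 5, 6, 9, 10, 11, 12, 19, 20, 23 and 27) summed to 128 counts over the E8 libraries, 172 over those of E8.5, 78 over those of E9.5 and 35 over those of E14. Their highest count in any library was the 49 of Platr20. Platr27, picked out after its values were seen, held 6, 8 and 10 counts at E8, 14, 16 and 11 at E8.5, 7, 4 and 4 at E9.5, and 1, 0 and 0 at E14. Platr11 had 0 counts in every E14 library, which allows up to 0.0126 CPM by counting error alone (3 counts over the 3 libraries). Platr12 lies wholly inside Gpr1, a chemerin receptor gene with 389 counts over all libraries, and Platr9 overlaps Cga, the shared subunit of glycoprotein hormones, with 116. Platr17, tested and not called, held 22, 40, 16 and 6 counts over the 3 libraries of each stage in order. Its nearest coding neighbour is Daxx, a histone chaperone gene 2739 bp away.

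Protein-coding pluripotency factors were measured in the same libraries, from a list of 32 genes of which 26 were tested. Of these, 1 rose and 14 fell at E9.5 against E8.5, 3 rose and 11 fell at E14 against E9.5, and 3 rose and 16 fell at E14 against E8, with median log2 fold changes of -0.67, -0.94 and -2.07. Over all genes tested, 18.4% rose and 18.5% fell, 25.4% rose and 24.6% fell, and 31.5% rose and 29.2% fell in the same comparisons, with medians of -0.03, 0.01 and 0.04. Lin28a, which blocks maturation of let-7 microRNAs, held 0, 7 and 0 counts at E14, beside 23085, 28209 and 30078 at E8. Trim71, a partner of that pathway, fell by 7.20 ± 0.20 at E14 against E8 (edgeR adjusted p = 3.3e-10), and Sall4, a zinc finger factor, fell by 5.74 ± 0.18 (edgeR adjusted p = 8.15e-10). Pou5f1, which encodes Oct4, held 6 counts at E14, against 41 at E8, over 3 libraries each. Sox2 held 19 counts over the E14 libraries, against 478 over the E8 libraries. The 3 that rose at E14 against E8, named after their values were seen, were Nanog (1.46 ± 0.31, edgeR adjusted p = 0.00135), Nr5a2 (0.69 ± 0.19, edgeR adjusted p = 0.00737) and Tet1 (0.26 ± 0.09, edgeR adjusted p = 0.0196). Nanog was low at every stage, at 0.677 CPM at E14 and 0.244 CPM at E8, and it has processed pseudogenes whose reads may be shared.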

How the data were processed

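Total RNA from cardiogenic regions was put into TriZol, and libraries followed a standard Illumina preparation, per the labels' protocols. The deposited table gives raw counts, whole numbers for each gene in each library. The submitters' processing notes name STAR 2.5.0 and Cufflinks 2.2.1, with builds GRCm38, mm10 and hg38 and no role for each; which program counted the reads, with what strand setting and on which annotation, is not given in the sources used here.

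The model was a robust quasi-likelihood fit of edgeR 4.0.16 (R 4.3.3) with a mean per stage over all 12 libraries, on the 28846 genes that passed filterByExpr, with TMM factors between 0.913 and 1.07 and a common dispersion of 0.0362. A call needs an adjusted p (Benjamini-Hochberg, over all genes tested) under 0.05. CPM use TMM-scaled totals, and SE are of the log2 fold changes. The fit was tested on data simulated for E14 against E9.5, with 64 to 66 genes changed at each size among 28270. It called 15.6% of changes of 0.5 on the log2 scale, 58.5% of changes of 1 and 89.4% of changes of 2. There were 4 false calls. Intervals were matched to GENCODE M21 (GRCm38). The longest transcript of each member was compared with all M21 transcripts by megablast (BLAST 2.17.0; at least 95% identity over 75 bases). Promoters are from RefSeq (GRCm38.p6).

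The members and gene lists were chosen with earlier results of these data known. Members were described one by one if called in a comparison or at a mean of at least 0.5 CPM. Other genes were named if they overlap a member, lie within 10000 bp as the nearest coding gene of one, or are among the 6 largest called changes of the pluripotency list per comparison. A few more are marked as named after their values were seen, and genes with near-identical transcripts and neighbours beyond that distance are given for identity. The fit was repeated with RLE and upper-quartile factors, without a filter, with at least 1 CPM in 3 libraries, with DESeq2 1.42.0, on 2 stages alone, with a replicate block, without small structural RNAs, with a gene span adjustment and without each library. The limit for a count of 0 covers counting error only.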

Additional observations from a re-analysis of the deposited data

How the results depend on the processing

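Over the described members and 3 tested comparisons, leaving out a library left 532 values on the same side of the threshold and in the same direction, while 68 lost and 8 gained a call and 4 changed sign. In the other alternatives 400 were unchanged in this sense, 24 lost a call and 7 gained one. The sign changes were Platr1 at E9.5 against E8.5 (log2 fold change -0.05 with all libraries, -0.29 to 0.19 on leaving 1 out) and Platr14 in the same comparison (-0.59 to 0.15), neither called. At E9.5 against E8.5, 10659 genes and 10 members were called; fitting the 2 stages alone gave 6099 genes and 4 members, no filter on low counts gave 6 members, and counting only members without an overlapping gene gave 5. Leaving out 1 library gave 7044 to 13015 genes, the lowest without E9.5 replicate 3, and 6 to 9 members, the lowest without E9.5 replicate 2 or 3. At E14 against E9.5, 14416 genes and 11 members were called; requiring at least 1 CPM in 3 libraries left 10 members tested and 5 called, and members without an overlap gave 6. Leaving out 1 library gave 12346 to 16285 genes and 7 to 13 members, the lowest without E9.5 replicate 2. At E14 against E8 the 14 members called became 7 with at least 1 CPM and 8 without an overlap, and 11 to 17 on leaving out 1 library. The smaller counts under the 1 CPM and no-overlap settings come from fewer members tested. For the other changes the cause was not tested.

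Deviations of same-numbered libraries from their stage means correlated from -0.0836 to 0.134, so the numbers were not taken to pair libraries. With the number as a replicate block, 8 members (1 higher, 7 lower) were called at E9.5 against E8.5, 10 at E14 against E9.5 and 14 at E14 against E8. Platr8 and Platr31 at E9.5 against E8.5 and Platr1 at E14 against E9.5 were not called under the block. Restricting the count to members at most 50% matched to other genes was chosen after seeing the data and gave 8, 8 and 11 calls. Several members had under 20 counts per library, which limits their precision whatever the setting.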

Other observations

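Other non-coding genes known from embryonic stem cells included both risers and fallers, as did the Platr rows. The list includes RNAs abundant at every stage, such as Malat1 (stage means of 896 to 2276 CPM). From a list of 23, 22 were in the table and 18 were tested: 7 rose and 2 fell at E9.5 against E8.5, 2 rose and 7 fell at E14 against E9.5, and 3 rose and 7 fell at E14 against E8. Over all genes tested, 18.4% rose and 18.5% fell, 25.4% rose and 24.6% fell, and 31.5% rose and 29.2% fell in those comparisons. The median log2 fold changes were -0.11, -0.55 and 0.05 for the list and -0.03, 0.01 and 0.04 for all genes. Of the 7 that rose at E9.5, 5 are rows of the single Mir302 and Mir367 cluster. Lncenc1, a transcript enriched in naive stem cells, held 76, 118 and 99 counts at E9.5, against 79, 75 and 86 at E8.5, a log2 fold change of 0.69 ± 0.21 (edgeR adjusted p = 0.022). The rows of that cluster, which is active in pluripotent cells, rose together, Mir302a by 1.62 ± 0.36 (edgeR adjusted p = 0.00517) and Mir367 by 1.66 ± 0.36 (edgeR adjusted p = 0.00438). Mir302a held 159, 251 and 220 counts at E9.5, against 38, 86 and 144 at E8.5. These rows lie close together, so their counts are not independent, and total RNA libraries count the precursor or host transcript as well as any mature form. Mir17hg, host of a growth-related microRNA cluster, fell by 1.08 ± 0.13 at E14 against E8 (edgeR adjusted p = 1.84e-05), and Malat1, an abundant nuclear RNA, rose by 1.17 ± 0.14 (edgeR adjusted p = 1.72e-05). These genes were named after their values were seen.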
